A study of Capra hircus with 27 samples.

Results

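The 200 steadiest genes of the goat tissue transcriptomes were those whose level varied least over 27 RNA-sequencing libraries of heart, lung and skeletal muscle. They were chosen by their measured values. Among genes with an ID that starts with GOAT_, those with a mean of 4 to 8 over the 27 columns of log2(FPKM + 1) were ranked by their standard deviation (SD) over the same columns, and the 200 with the smallest SD were kept. They were 200 of 3446 genes in this level window, of 17671 GOAT_ genes and of 22131 genes in all. Because their tissue and altitude values entered the choice, those values are given as a description. Counts of members called in fits of the whole table are printed beside the share of all genes called and support nothing, and only genes chosen without a tissue were tested independently of its libraries.

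Genes with an even level across tissues are commonly called reference or housekeeping genes, and they serve as internal standards against which other genes are read. FPKM, the number of fragments per kilobase of transcript, scaled to the size of the library, is a share of a library. A gene that keeps a constant share can therefore differ in transcripts per cell, and a few very abundant transcripts can lower the share of all others.

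The libraries came from goats (Capra hircus) of about 3 years of age, and no treatment was given in the labels. The animals belonged to populations at Ya'an (600 m), Zhaotong (2000 m) and A'ba (3000 m), with 3 libraries for each tissue and altitude. Altitude and population coincide, so their parts cannot be told apart, and the study took several tissues from each of its goats, unrelated adult females, at 600 m and 3000 m, so the tissues share animals there. The sources used here do not describe the 2000 m goats in this way, and the labels tie no library to a goat. In bulk tissue, a lower share of one cell type and less RNA per cell cannot be told apart either.

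None of the 22131 IDs matched the available table of goat gene symbols (0 matches). No symbol, function, position or sequence can therefore be given for a member, and the tissue labels were not checked against marker genes. Of the members, 99 carried an ID of the kind GOAT_ENSBTAP (49.5%, against 51.9% of the window) and the rest one of the kind GOAT_ENSP (the other 50.5%, against 48.1%). An ID with a -D suffix was held by 2 members and by 50 genes of the window.

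The steady genes were moderately abundant. Their mean level ran from 4.004 to 7.77 with a median of 4.96 on the log2(FPKM + 1) scale, which corresponds to 30.1 FPKM, with 15.04 FPKM at the lowest level and 217 FPKM at the highest. The median level of the window was 4.99, or 30.7 FPKM. The members were spread through the window rather than gathered at one end of it. They made up 5.87% of the window genes at a level of 4 to 5 (102 of 1738), 6.43% at 5 to 6 (64 of 995), 5.07% at 6 to 7 (25 of 493) and 4.09% at 7 to 8 (9 of 220).

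Every member was detected in all 27 libraries, and all 200 passed the filter on low values in each tissue. Their SD ran from 0.151 to 0.278 with a median of 0.244, against a window median of 0.617 and a window maximum of 5.89. From its lowest to its highest library a typical member moved by 0.97 on the log2 scale (1.96-fold, range 0.54 to 1.30), whereas a typical window gene moved by 2.18 (4.53-fold). Even so, 82 of the 200 members moved by more than 1 on this scale, against 96.0% of the window. The boundary of the set was not marked by a gap. The SD was 0.2773, 0.2780 and 0.2782 for the last 3 genes inside it and 0.2790, 0.2792 and 0.2801 for the first 3 outside.

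**Figure D1:**
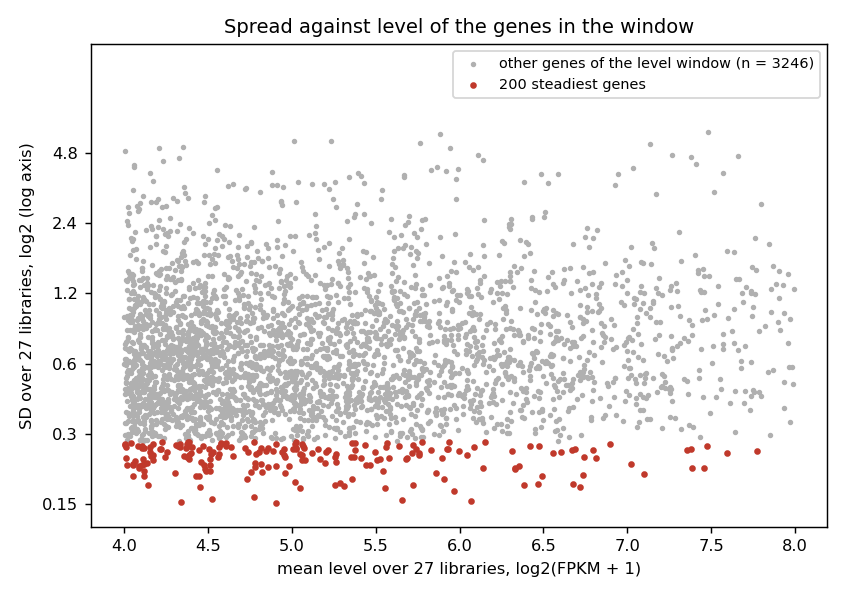
Each point is a gene of the level window, with its mean level over 27 libraries on the x axis (log2(FPKM + 1)) and its SD over the same libraries on the y axis (log2 units, log axis). The 200 steadiest genes, in red, lie at or below an SD of 0.278 at all levels of the window, where the median gene has an SD of 0.617.

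On average no source held most of the variation that the members kept. The shares are not like for like, because the sources hold unequal numbers of the 26 degrees of freedom. Averaged over members, differences between tissues held 29.9% of the sum of squares (2 degrees of freedom), differences between altitudes within a tissue 31.7% (6 degrees of freedom) and differences between replicates 38.4% (18 degrees of freedom), with all 27 libraries counted separately. In the window as a whole, tissue held 65.8%, altitude 18.7% and replicates 15.5%. The replicate part was the largest in 82 members, the tissue part in 67 and the altitude part in 51. Single members differed widely, since the altitude part ran from 3.27% to 79.6% and the tissue part from 0.563% to 75.5%. The median SD between replicates was 0.170 for the members and 0.240 for the window.

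The members had nearly the same mean level in the 3 tissues, at 5.14 in heart, 5.17 in lung and 5.12 in skeletal muscle. The highest tissue mean was in lung for 88 members, in heart for 60 and in muscle for 52, and the lowest was in muscle for 82, in heart for 63 and in lung for 55. The median absolute difference was 0.171 between heart and lung, 0.182 between heart and muscle and 0.177 between lung and muscle. For window genes the same differences were 0.770, 0.490 and 0.890. The mean of the highest tissue lay above that of the lowest by a median of 0.28 and at most 0.54.

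A pair of muscle libraries stood apart from the rest. Over the members, replicates 1 and 2 of muscle at 600 m differed with an SD of 0.0998, whereas the other 26 pairs of replicates differed with SDs of 0.161 to 0.298. They were averaged and counted as 1 sample, so that differences between altitudes rest on 26 samples, 2 of them for muscle at 600 m. Left as 27 columns for the choice of genes, the pair had little weight in it, because 195 of the 200 members were chosen again over the 26 samples.

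The gene with the smallest SD was GOAT_ENSP00000355231 (SD 0.151, mean level 4.91, 29.0 FPKM). In heart it read 27.9, 32.7 and 36.7 FPKM at 600 m, 27.5, 27.9 and 25.3 FPKM at 2000 m and 27.3, 26.4 and 27.7 FPKM at 3000 m. The lung libraries gave 31.8, 33.8 and 35.3 FPKM at 600 m, 31.5, 29.2 and 29.4 FPKM at 2000 m and 26.2, 31.3 and 31.2 FPKM at 3000 m. The muscle libraries gave 26.4, 29.2 and 30.9 FPKM at 600 m, 25.4, 32.6 and 26.02 FPKM at 2000 m and 25.3, 25.03 and 27.7 FPKM at 3000 m. All 3 lung libraries of 600 m lay above those of 2000 m and 3000 m, and in muscle the altitudes overlapped. Its altitude part was 35.7% of the sum of squares.

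GOAT_ENSP00000369500 was the second by SD (0.153, mean level 4.34). Its heart levels were 18.7, 20.2 and 21.5 FPKM at 600 m, 21.8, 17.9 and 18.4 FPKM at 2000 m and 18.5, 17.9 and 18.7 FPKM at 3000 m. Lung levels were 18.8, 23.7 and 24.95 FPKM at 600 m, 19.4, 17.9 and 17.8 FPKM at 2000 m and 17.9, 17.8 and 18.5 FPKM at 3000 m. Muscle levels were 16.5, 17.7 and 25.7 FPKM at 600 m, 20.2, 20.3 and 18.1 FPKM at 2000 m and 19.1, 17.6 and 17.4 FPKM at 3000 m. The highest and the lowest of its 27 libraries were both muscle libraries of 600 m, and the replicates held 65.5% of its sum of squares.

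GOAT_ENSP00000222005 (SD 0.155, mean level 6.07) was more abundant per length than the first of these genes, at 66.1 against 29.0 FPKM. In heart the readings were 61.1, 71.3 and 71.4 FPKM at 600 m, 61.8, 66.0 and 71.9 FPKM at 2000 m and 70.4, 83.8 and 58.6 FPKM at 3000 m. In lung they were 55.2, 70.1 and 69.8 FPKM at 600 m, 67.3, 66.7 and 79.3 FPKM at 2000 m and 53.3, 63.6 and 67.7 FPKM at 3000 m. Muscle gave 63.0, 64.2 and 67.0 FPKM at 600 m, 66.2, 77.3 and 63.8 FPKM at 2000 m and 70.1, 59.6 and 53.8 FPKM at 3000 m. The altitudes overlapped in every tissue, and replicates held 76.1% of the sum of squares.

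A small SD did not exclude an ordered altitude difference, and 4 further members are given because their mean change from 600 m to 3000 m over the 3 tissues was the largest in either direction. GOAT_ENSBTAP00000049804 (rank 120, mean level 6.61) had the largest positive mean change, 0.39. Heart read 83.8, 78.0 and 81.7 FPKM at 600 m, 97.7, 93.2 and 98.0 FPKM at 2000 m and 109, 106 and 99.0 FPKM at 3000 m. Lung read 104, 103 and 87.2 FPKM at 600 m, 110.4, 118 and 123 FPKM at 2000 m and 126, 107 and 117 FPKM at 3000 m. Muscle read 68.6, 67.4 and 75.3 FPKM at 600 m, 73.9, 97.2 and 94.7 FPKM at 2000 m and 112, 95.6 and 113 FPKM at 3000 m. The 3000 m libraries lay above the 600 m libraries in every tissue, and the 2000 m libraries did so in heart and lung. The difference between 3000 m and 600 m was 0.36 (SE 0.11) in heart, 0.25 (SE 0.14) in lung and 0.57 (SE 0.21) in muscle on the log2 scale.

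GOAT_ENSBTAP00000001839 (rank 114, mean level 4.94) had the next largest positive mean change, also 0.39. It stood at 20.6, 23.4 and 24.0 FPKM in heart at 600 m, at 32.2, 28.1 and 29.2 FPKM at 2000 m and at 30.4, 29.0 and 28.8 FPKM at 3000 m. In lung it stood at 20.8, 30.5 and 26.7 FPKM at 600 m, 32.1, 29.1 and 33.0 FPKM at 2000 m and 31.6, 36.5 and 35.3 FPKM at 3000 m. In muscle it stood at 29.3, 25.7 and 28.1 FPKM at 600 m, 26.3, 44.5 and 27.6 FPKM at 2000 m and 37.6, 37.1 and 36.3 FPKM at 3000 m. The 3000 m libraries again lay above those of 600 m in every tissue, by 0.37 (SE 0.12) in heart, 0.41 (SE 0.16) in lung and 0.40 (SE 0.24) in muscle. At 2000 m the groups were apart in heart, whereas they overlapped in lung and muscle, where replicate 2 alone was high. Without that library the muscle difference at 2000 m was -0.04 in place of 0.19.

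The largest negative mean change, -0.48, was that of GOAT_ENSBTAP00000028680 (rank 184, mean level 4.38). Its heart libraries gave 23.0, 23.9 and 27.0 FPKM at 600 m, 15.5, 16.6 and 17.3 FPKM at 2000 m and 17.1, 19.1 and 18.2 FPKM at 3000 m. Its lung libraries gave 22.8, 23.9 and 30.2 FPKM at 600 m, 18.8, 17.9 and 18.6 FPKM at 2000 m and 16.4, 14.5 and 16.3 FPKM at 3000 m. Its muscle libraries gave 23.8, 22.5 and 27.5 FPKM at 600 m, 20.9, 14.01 and 18.1 FPKM at 2000 m and 21.1, 19.3 and 18.6 FPKM at 3000 m. In all 3 tissues every library of 600 m lay above every library of 2000 m and of 3000 m. The difference between 3000 m and 600 m was -0.42 (SE 0.12) in heart, -0.66 (SE 0.14) in lung and -0.35 (SE 0.22) in muscle, and that between 2000 m and 600 m was -0.55, -0.44 and -0.51. Altitude held 79.6% of its sum of squares, the highest share among the members, and tissue held 1.19%.

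GOAT_ENSBTAP00000006347 (rank 156, mean level 4.57) came next, with a mean change of -0.44. Heart gave 31.2, 23.5 and 29.8 FPKM at 600 m, 22.4, 24.0 and 23.9 FPKM at 2000 m and 23.5, 20.6 and 20.0 FPKM at 3000 m. Lung gave 21.1, 23.7 and 20.3 FPKM at 600 m, 17.8, 22.0 and 21.9 FPKM at 2000 m and 17.5, 18.8 and 19.1 FPKM at 3000 m. The values in muscle were 26.3, 29.2 and 39.8 FPKM at 600 m, 26.5, 22.4 and 19.4 FPKM at 2000 m and 20.4, 20.0 and 18.8 FPKM at 3000 m. The 3000 m libraries lay below those of 600 m in every tissue, and those of 2000 m overlapped with them in every tissue. The muscle difference between 3000 m and 600 m was -0.72 (SE 0.22), and it was -0.47 without replicate 3 of 600 m, the highest library of this gene.

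The direction of these 4 genes between 3000 m and 600 m was the same in all 3 tissues after each other scaling tried (by the members, by the median of ratios and by quantiles). That of the 3 genes with the smallest SD was not always so. GOAT_ENSP00000355231 in lung went from -0.18 as deposited to 0.03 after quantile normalization, and GOAT_ENSP00000222005 in lung went from -0.08 to 0.24.

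**Figure D2:**
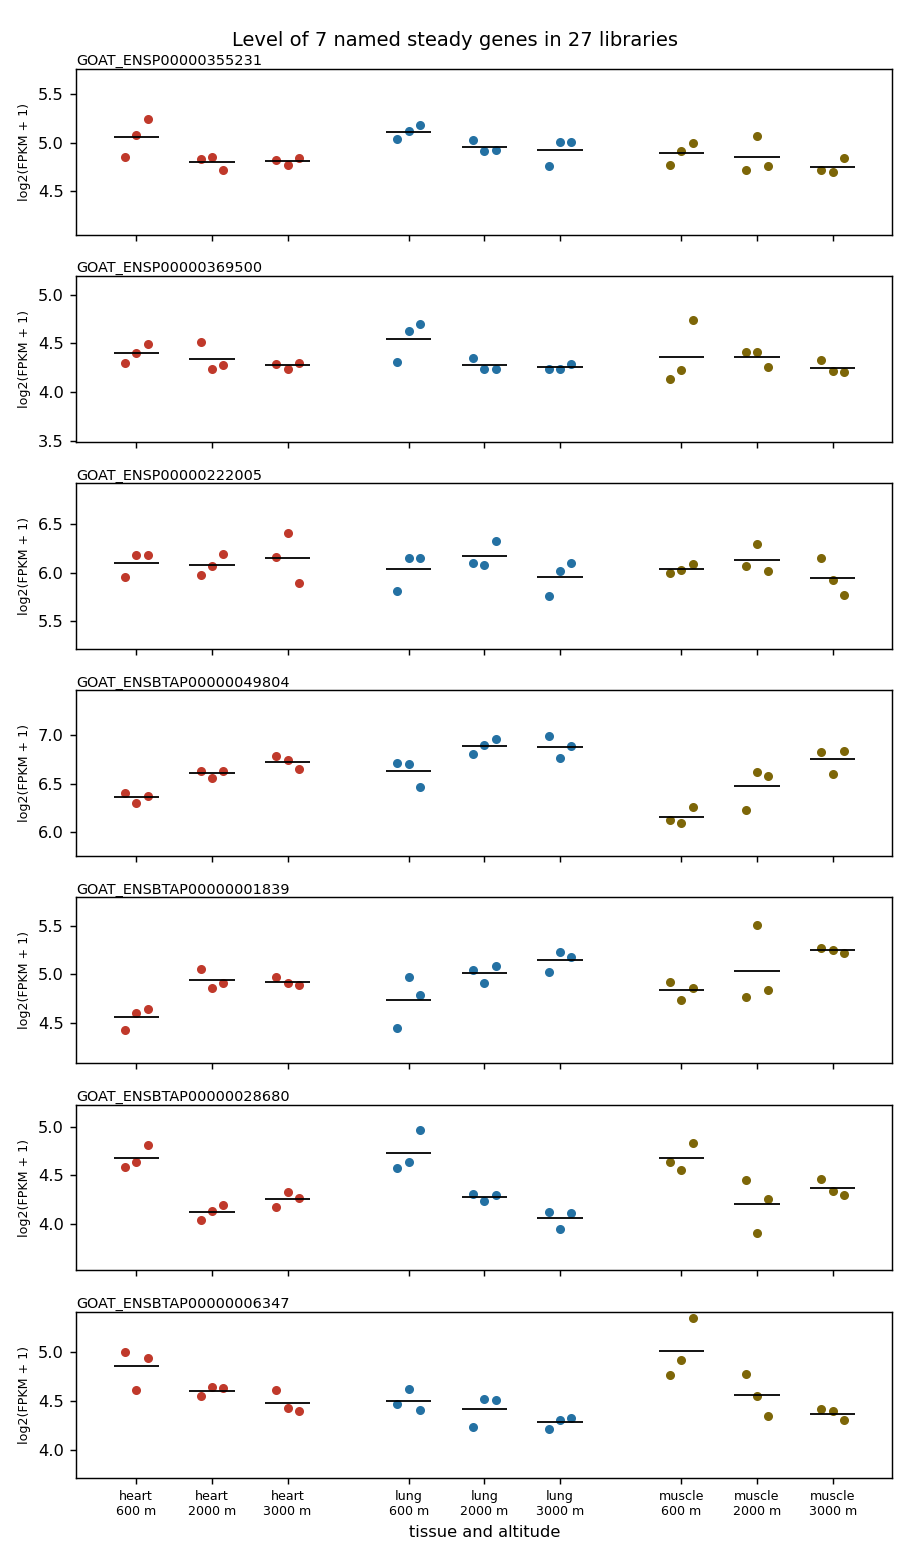
Level of the 7 named genes, log2(FPKM + 1), by tissue and altitude, with 1 point for each of 27 libraries and a bar at the mean of the 3 libraries. Every panel spans the same distance on the y axis. The upper 3 genes have the smallest SDs (0.151 to 0.155), the next 2 are higher at 3000 m than at 600 m in each tissue and the last 2 are lower.

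Across the whole set a small drift with altitude remained, mostly towards lower values above 600 m. At 3000 m the median difference of the members from 600 m was -0.01 in heart, -0.14 in lung and -0.14 in muscle, and 96, 61 and 66 of the 200 were higher. At 2000 m it was -0.08, -0.05 and -0.15, and 73, 87 and 58 were higher. No member differed by 2-fold in any of these 6 comparisons, in which the differences ran from -0.77 to 0.66. At 3000 m 66 members were lower in all 3 tissues and 22 were higher in all 3, and at 2000 m the numbers were 75 and 21.

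The drift was close to that of other genes of the same level in heart, and smaller than theirs in lung and muscle. A choice by small SD over the same columns favours this, so nothing is read from it. The window medians at 3000 m were -0.02 in heart, -0.24 in lung and -0.17 in muscle, and those at 2000 m were -0.07, -0.16 and -0.21. The medians of all genes tested were 0.08, -0.08 and -0.08 at 3000 m and 0.13, -0.05 and -0.12 at 2000 m. In heart the typical gene was thus higher than at 600 m while the typical steady gene was not. How far this rests on heart replicate 1 of 600 m was not tested. By the median of ratios, described below, that library stood at -0.371, and replicates 2 and 3 at -0.074 and -0.070. The heart means by that measure were -0.024 at 2000 m and -0.125 at 3000 m. The comparisons within a tissue share their 600 m libraries.

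In lung and muscle the sign of the drift depended on the scaling. In heart it stayed negative with the median of ratios and with quantiles. At 3000 m the heart median was 0.017 after scaling by the members, which removes their mean change by construction. It was 0.022 after scaling by genes chosen without heart, 120 of which were members. Nothing about the sign is read from either value. After median-of-ratios scaling, in which each library is divided by the median of its ratios to the geometric mean over the libraries, the 2000 m medians were -0.22 in heart, 0.03 in lung and 0.05 in muscle, and the 3000 m medians were -0.05, -0.03 and -0.04. After quantile normalization, which gives every library the same distribution, the heart medians were -0.036 at 2000 m and -0.012 at 3000 m, the lung medians were 0.08 at 2000 m and 0.10 at 3000 m and the muscle medians 0.06 and 0.04. The muscle medians also rested on 1 library. Without replicate 3 of 600 m they were -0.04 at both altitudes, and without the averaged pair they were -0.24 at 2000 m and -0.23 at 3000 m. In heart the 2000 m median was -0.11 without replicate 1 of 600 m and -0.03 without replicate 3, and in lung it was -0.10 without replicate 1 of 600 m and -0.03 without replicate 2 of 2000 m.

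**Figure D3:**
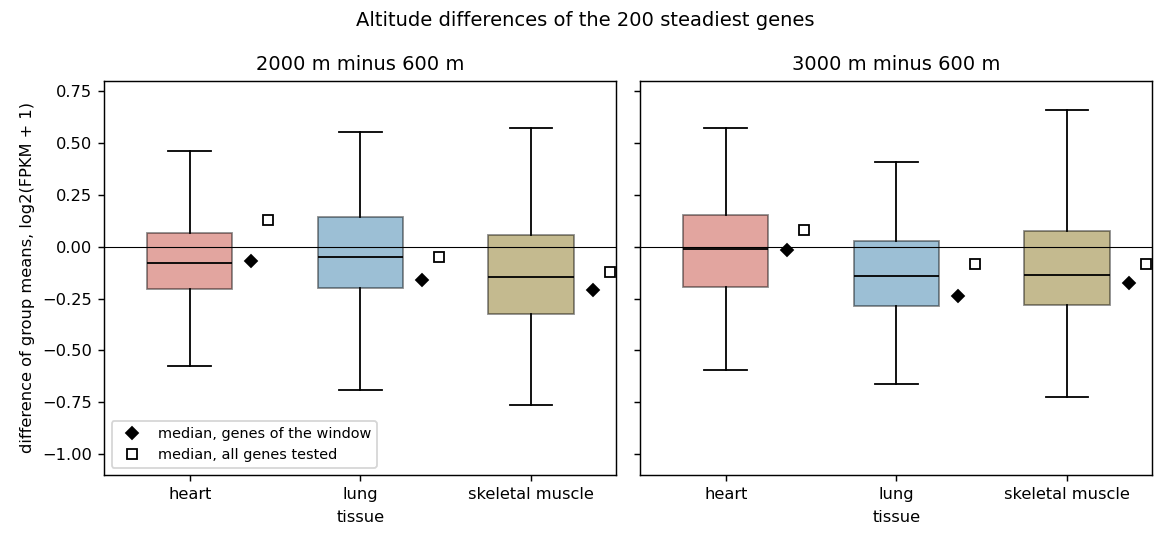
Differences of group means from 600 m on the log2(FPKM + 1) scale for the 200 steadiest genes, by tissue, as deposited. Boxes give the quartiles and the median, and whiskers reach the lowest and highest member. Filled diamonds are the medians of the 3446 window genes and open squares those of all genes tested. The members' medians lie between -0.15 and -0.01 here, and those of lung and of muscle turn positive at both altitudes after quantile normalization and at 2000 m after median-of-ratios scaling.

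A fit of all genes in each tissue (limma, two-sided, Benjamini-Hochberg adjusted p of at most 0.05) called few members. Between 3000 m and 600 m it called 8 members in heart (4% of 200), where 11.1% of all genes tested were called, 2 in lung beside 2.84% and 0 in muscle beside 2.08%. Between 2000 m and 600 m it called 12 in heart beside 22.5%, 0 in lung beside 5.10% and 0 in muscle beside 5.91%. Between 3000 m and 2000 m it called 0 members in each tissue, with 0.00809% of all genes called in heart, 0% in lung and 0.00839% in muscle. Nothing is read from these counts, because a gene with a large altitude difference could hardly enter the set. At an unadjusted p under 0.05, 44, 33 and 13 members passed between 3000 m and 600 m in heart, lung and muscle. Of all genes tested, 3908 of 12363, 3715 of 13965 and 2719 of 11920 did so. Between 2000 m and 600 m, 33, 25 and 18 members passed, beside 4678, 4062 and 3238 of all genes tested. Between 3000 m and 2000 m, 22, 1 and 8 members passed, beside 1787, 807 and 1051.

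Summed over the tissues, the 10 calls at 3000 m became 0 when only the compared altitudes entered the fit. They numbered 17 without heart 600 m replicate 1, 2 without heart 600 m replicate 2 or 3 or heart 3000 m replicate 1 or 3, and 4 without heart 3000 m replicate 2. The 12 calls at 2000 m numbered 4 without heart 600 m replicate 2 or heart 2000 m replicate 2 and 3 without heart 600 m replicate 3 or heart 2000 m replicate 1. These fits hold fewer samples, and the share of all genes called in them is not given. Nothing about the members is read from these changes.

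Libraries of 2 altitudes that did not overlap at all were common among the members too. Between 3000 m and 600 m this was so for 57 members in heart (28.5%, against 33.3% of all genes tested and 38.4% of the window), 67 in lung (33.5%, against 30.6% and 40.5%) and 75 in muscle (37.5%, against 41.3% and 46.3%). Between 2000 m and 600 m it was so for 57 in heart (28.5%, against 40.8% and 41.7%), 70 in lung (35%, against 35.9% and 43%) and 72 in muscle (36%, against 46.4% and 51.4%). Nothing is read from these shares, since the rule used the same values. In lung at 3000 m the direction was uneven, with 63 members entirely below the 600 m libraries and 4 entirely above. The window leaned the same way there. By group means 2514 window genes were lower and 901 higher, beside 139 and 61 members.

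To see whether steadiness carried over to libraries that took no part in the choice, the same rule was applied to the 18 libraries of 2 tissues and the 200 genes were followed in the third. Chosen in lung and muscle, the genes had a median SD of 0.181 over the 9 heart libraries, against 0.272 for the window of those tissues, and 87.5% had an SD below the median of that window. Chosen in heart and muscle, they had 0.201 against 0.282 in lung, with 84.5% below the median. Chosen in heart and lung, they had 0.247 against 0.332 in muscle, with 80.5% below the median. The genes chosen were thus steadier than most in the unused tissue in each case, while the exact list was less stable. Of the 200, 120, 79 and 102 were shared with the members, and 40, 30 and 26 were also among the 200 steadiest of the window in the unused tissue.

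Leaving out an altitude in place of a tissue changed the list less at 2000 m and 3000 m than at 600 m. Without the 600 m libraries 115 of the 200 members were chosen again, against 161 without those of 2000 m and 162 without those of 3000 m. In the altitude left out, the chosen genes had a median SD of 0.245, 0.233 and 0.238, where the window had 0.616, 0.588 and 0.587. Leaving out the libraries of 1 replicate number kept 173, 173 and 160 members.

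These genes, chosen without the tissue, allow a test that is independent of that tissue's libraries, but not of the goats, which the tissues share at 600 m and 3000 m. In heart, 9 of 200 (4.5%) passed an adjusted p of 0.05 in the limma fit between 3000 m and 600 m, where 14.3% of the window of the other tissues passed. Between 2000 m and 600 m 16 passed (8%), beside 23.0%. In lung 2 passed at 3000 m (1%) beside 4.97%, and 6 at 2000 m (3%) beside 7.94%. In muscle 0 passed at 3000 m beside 2.52% (at an unadjusted p under 0.05, 30 of 200 beside 1003 of 3772 genes of that window). At 2000 m 3 passed in muscle (1.5%) beside 7.74%. The share was below that of the window in all 6 comparisons, and the difference between the shares was not tested.

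Their median change had the sign of that of the members, at -0.02 in heart, -0.16 in lung and -0.19 in muscle at 3000 m and -0.09, -0.07 and -0.19 at 2000 m. The medians of the window of the other tissues were -0.02, -0.23 and -0.18 at 3000 m and -0.06, -0.16 and -0.21 at 2000 m. The numbers of calls rested on single libraries. Over the 3 tissues the 11 calls at 3000 m became 21 without heart 600 m replicate 1 and 19 without lung 600 m replicate 1. They became 3 without heart 600 m replicate 2, 7 without heart 3000 m replicate 2, and 2 without heart 600 m replicate 3 or heart 3000 m replicate 1 or 3. The 25 calls at 2000 m became 13 without heart 600 m replicate 2 or heart 2000 m replicate 1 or 2, and 12 without heart 600 m replicate 3. With only the compared altitudes in the fit there were 1 and 10 calls. The share of all genes called is not given for these smaller fits, so nothing about the chosen genes is read from the changes.

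The steady genes give a scale against which each library can be read. The offset of a library is the mean deviation of the 200 members from their own means over the 27 libraries. It ran from -0.140 (lung, 3000 m, replicate 1) to 0.155 (muscle, 600 m, replicate 3), with an SD of 0.0781, so that the libraries spanned 1.23-fold. By this measure the deposited values of these genes were close to a common scale, which the rule favours. The offset held 10.7% of the members' variance, and their median SD was 0.227 once it was subtracted.

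Single libraries took many of the extremes. Muscle replicate 3 at 600 m was the highest library for 45 members. The lowest library was lung replicate 1 at 3000 m for 25 members, muscle replicate 3 at 2000 m for 24, muscle replicate 3 at 3000 m for 23 and heart replicate 1 at 600 m for 21. The mean offsets at 600, 2000 and 3000 m were 0.030 ± 0.087, -0.041 ± 0.033 and 0.004 ± 0.066 (SD, n = 3) in heart. In lung they were 0.083 ± 0.054, 0.043 ± 0.033 and -0.044 ± 0.083, and in muscle 0.031 ± 0.108, -0.064 ± 0.102 and -0.042 ± 0.052, where the pair counted as 2 libraries. In lung every library of 600 m lay above every library of 3000 m, and in heart and muscle the altitudes overlapped.

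Other genes gave other offsets. For the 200 genes chosen without the tissue of the library, the offset ran from -0.285 to 0.223. The median of ratios over 11903 genes detected in all libraries ran from -0.604 to 0.630, a span of 2.35-fold, with group means between 0.461 and 0.573 in lung, between -0.172 and -0.024 in heart and between -0.489 and -0.316 in muscle. In heart the scales moved in opposite directions between 600 m and 2000 m, from 0.030 to -0.041 by the members and from -0.172 to -0.024 by the median of ratios. Without heart replicate 1 of 600 m, whose median of ratios was -0.371, the other two libraries of that group stood at -0.074 and -0.070. The 10 most abundant genes held 10.3% to 41.5% of all FPKM in a library, with means of 13.0% to 14.8% over the lung groups and 25.3% to 34.4% over the heart and muscle groups. The members together held 0.97% to 1.74%. The part of the abundant genes in these offsets was not tested.

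**Figure D4:**
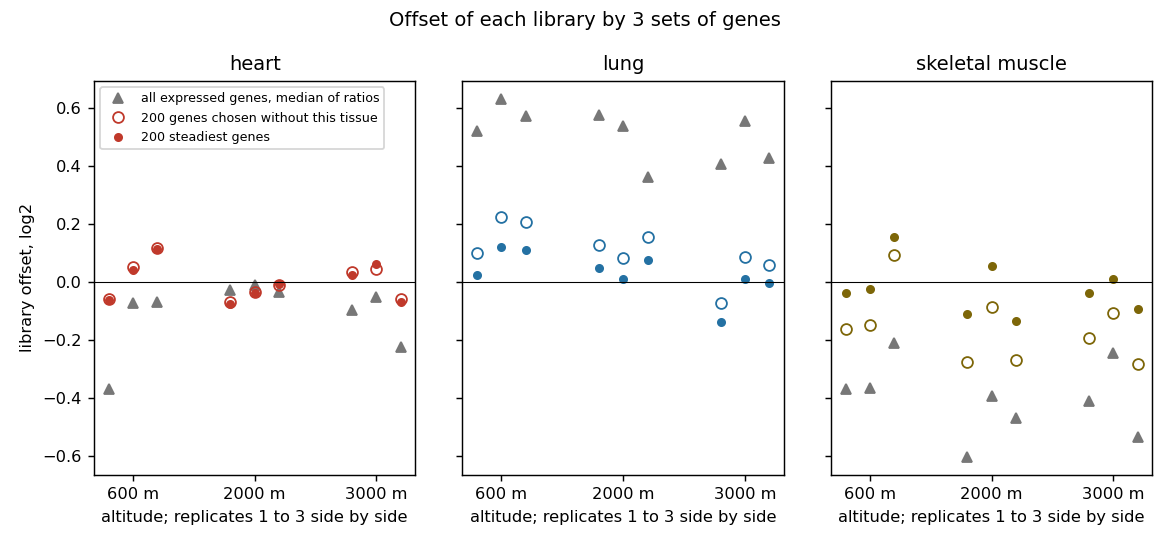
Offset of each of 27 libraries on the log2 scale, by tissue (panels) and altitude, with replicates 1 to 3 side by side. Filled circles are the 200 steadiest genes (-0.140 to 0.155), open circles 200 genes chosen without that tissue (-0.285 to 0.223), and triangles the median of ratios of all genes detected in every library (-0.604 to 0.630). The triangles separate lung from the other tissues. The filled circles do not, which the choice by small SD over the same libraries favours.

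The difference between these scales went with the level of the genes. Genes of low level were more abundant in lung than in muscle, by a median of 1.18 at a level of 1 to 2 (2494 genes) and of 0.98 at 2 to 3. At the levels of the window, over all IDs, the median was 0.51 at 4 to 5 and went to 0.27 at 5 to 6, 0.02 at 6 to 7 and -0.43 at 7 to 8 (231 genes), and it was -0.02 at 8 and above. The steady genes, all within the window, had a median lung to muscle difference of 0.05. Between lung and heart the median went from 0.88 at a level of 1 to 2 to -0.44 at 7 to 8, while heart exceeded muscle by 0.21 to 0.42 in every bin of level.

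The altitude differences also followed level. In heart at 2000 m the median difference from 600 m was 0.25 for genes at a level of 1 to 2, 0.11 at 3 to 4, -0.01 at 4 to 5 and -0.17 at 6 to 7, so its sign changed at about the lower edge of the window. In heart at 3000 m it went from 0.12 at 1 to 2 to -0.18 at 8 and above. In lung at 3000 m it went from 0.05 at 1 to 2 to -0.34 at 7 to 8. In muscle at 2000 m it was lowest at 4 to 5 (-0.25) and nearer to 0 at 1 to 2 (0.02) and at 7 to 8 (-0.03). A single factor per library therefore could not bring the medians of all levels to 0 together. Within the members, the median difference of the 100 genes of lower level and the 100 of higher level followed no common order. At 2000 m the heart values were -0.06 and -0.09, the lung values -0.05 and -0.08 and the muscle values -0.17 and -0.12. At 3000 m the heart values were -0.022 and -0.0065, the lung values -0.09 and -0.16 and the muscle values -0.15 and -0.12. The pseudocount of 1 understates differences of genes with low FPKM, and the part of read depth was not tested, since the values give no read counts.

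**Figure D5:**
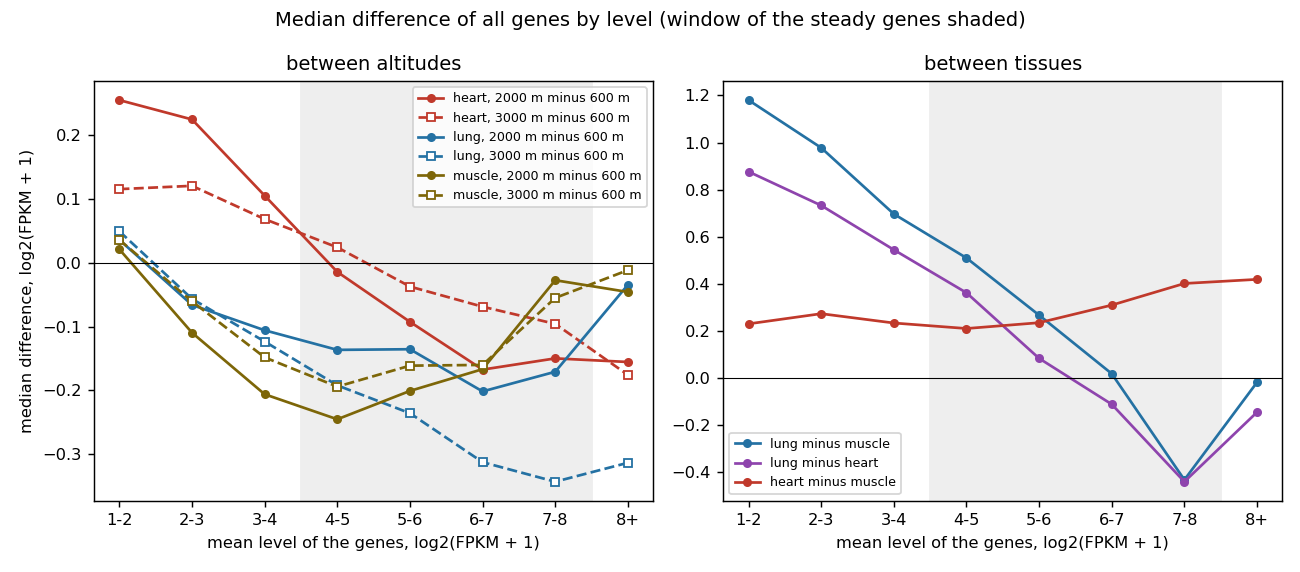
Median difference of all genes on the log2(FPKM + 1) scale by their mean level over the libraries, between altitudes (left, 3 tissues) and between tissues (right). The shaded bins are the level window of the steady genes. The heart line for 2000 m goes from 0.25 at the lowest level to -0.17 at 6 to 7, and the lung minus muscle line from 1.18 to -0.43 at 7 to 8.

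Which genes count as steady depended on the scale on which they were chosen. After median-of-ratios scaling, the same rule chose 6 of the 200 members again, and after quantile normalization 77. On the median-of-ratios scale the members had a median SD of 0.413 and stood lower in lung than in muscle by a median of 0.82 (lung minus muscle -0.82), and on the quantile scale they had a median SD of 0.281 and a lung minus muscle difference of -0.44. Conversely, the 200 genes steadiest on the median-of-ratios scale, where their median SD was 0.232, were higher in lung than in muscle by 0.81 as deposited. Within the deposited scale the choice was firmer, with 185 of the 200 chosen again by the coefficient of variation of FPKM and 196 when all IDs could enter.

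Reading all other genes against the members changed the balance of higher and lower calls. The subtraction moves every gene of a library by the same amount, so a change in balance is a property of the scale and not of single genes. After subtraction of the members' offset, heart had 1809 genes called between 3000 m and 600 m (67.8% higher at 3000 m) in place of 1375 (66.3% higher) and 3428 between 2000 m and 600 m (79.6% higher) in place of 2781 (72.5%). In lung at 3000 m there were 338 (63.0% higher) in place of 396 (25.8% higher), with the median change of all genes at -0.08 as deposited and 0.05 after the subtraction. In lung at 2000 m there were 770 (56.5% higher) in place of 712 (43.5%). Muscle had 268 (44.8% higher) in place of 248 (37.1%) at 3000 m and 669 (44.2% higher) in place of 704 (32.7%) at 2000 m. With the offset applied to FPKM before the log transform, heart had 1758 calls (67.6% higher) at 3000 m and 3309 (79.0%) at 2000 m. Lung then had 251 (60.2%) and 748 (55.5%), and muscle 258 (43.0%) and 622 (40.8%).

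Other scalings gave another balance again. With the median of ratios, 52.3% of 1750 heart calls at 3000 m and 49.9% of 3116 at 2000 m were higher, and the shares were 55.4% of 242 and 58.1% of 880 for lung and 37.4% of 195 and 44.7% of 514 for muscle. With quantiles the heart shares were 47.9% of 1522 and 49.1% of 2464, the lung shares 66.7% of only 42 calls and 60.7% of 626 and the muscle shares 50.3% of 163 and 50% of 596. With the genes chosen in the other tissues the heart shares were 68.9% of 1848 and 80.1% of 3510, the lung shares 68.0% of 456 and 59.4% of 757 and the muscle shares 50.4% of 246 and 48.1% of 616. The median change of all genes at 2000 m in heart was 0.13 as deposited, 0.20 after scaling by the members, 0.01 by the median of ratios and -0.02 by quantiles.

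Scaling by the members changed the spread between replicates of the other genes little. Over the genes tested that were neither members nor chosen in the other tissues (12083 in heart, 13644 in lung and 11622 in muscle), the median replicate SD was 0.227 in heart, 0.268 in lung and 0.281 in muscle as deposited, and 0.217, 0.268 and 0.273 after the scaling. With the median of ratios it was 0.218, 0.243 and 0.283, and with quantiles 0.200, 0.262 and 0.250. The scaled counts at 3000 m, 2415 over the 3 tissues, were 1384 and 1032 without heart 600 m replicate 2 or 3, and 868 and 1038 without heart 3000 m replicate 1 or 3. Within lung they rested on single libraries. When replicate 2 of 600 m was left out, the 338 calls at 3000 m became 0 and the 770 at 2000 m became 4, and when replicate 1 of 600 m was left out they became 1402 and 1729. Within muscle, the 268 calls at 3000 m became 16 when replicate 3 of 3000 m was left out and 941 when replicate 2 was, and the 669 at 2000 m were 28 without 2000 m replicate 3. In heart the counts ran from 262 (without 3000 m replicate 1) to 2442 (without 600 m replicate 1) at 3000 m, and from 2043 to 3714 at 2000 m (without 600 m replicate 3 or 1).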

How the data were processed

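RNA sequencing of 27 goat libraries was analysed. The libraries were strand-specific per the labels. Reads were aligned with TopHat2 2.0.11 and FPKM estimated with Cufflinks 2.2.1 by the authors, per the processing notes of the submitters, and the deposited values are log2(FPKM + 1). The methods cover the goats of 600 m and 3000 m. How the 2000 m libraries were processed is not given in the sources used here. The study names CHIR_1.0 as its goat reference. The values hold no read counts, so depth is unknown and no counting interval is given. Levels in FPKM were obtained by undoing the log2 transform.

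The steady genes and all lists were chosen with earlier results of these data known. The planned counts over gene lists and tissue markers were left out, since no ID matched a symbol. Named genes are the 3 members with the smallest SD, the 2 with the largest rise and the 2 with the largest fall from 600 m to 3000 m (mean over tissues), and others are given by rank or count.

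Altitudes were compared within each tissue with limma 3.58.1 in R 4.3.3 (lmFit, eBayes with a trend) for genes with a mean FPKM above 0.5, with all 3 altitudes in the fit, by two-sided tests with p adjusted after Benjamini-Hochberg and called at 0.05 or less. The study used Cuffdiff, whose input was not used here. The study describes 3 unrelated goats at 600 m and at 3000 m. For 2000 m no source used here says that the samples came from separate goats, so p-values there measure the spread between samples. The fit and the choice of genes were tested on simulated data. Scaling by the members subtracted each library's mean deviation over the 200 genes. Medians by level and the members' offset applied to FPKM were added after seeing the data. Other settings were other scalings, a pseudocount of 0.1, no filter, separate muscle libraries, a replicate block and each sample left out in turn.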

Additional observations from a re-analysis of the deposited data

How the results depend on the processing

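Median changes of the members were set against the pooled SD between replicates of the members' library offset. This SD was 0.066 in heart, 0.060 in lung and 0.093 in muscle, smaller than the replicate SD of single members. Under other scalings the medians moved by more than it, except in heart at 3000 m (both scalings) and in heart at 2000 m with quantiles. With the median of ratios they were -0.22 (heart, 2000 m), 0.027 (lung, 2000 m), -0.034 (lung, 3000 m), 0.045 (muscle, 2000 m) and -0.040 (muscle, 3000 m). With quantiles the lung medians were 0.078 and 0.098 and the muscle medians 0.057 and 0.039, at 2000 m and 3000 m. The cause was not tested. Members called at 2000 m numbered 12, and 35 with the median of ratios. These were all in heart, where 2781 and 3116 of 12363 genes tested were called. At 3000 m they numbered 10, and 0 with only the compared altitudes, a fit with fewer samples. Genes chosen in the other tissues gave 25 calls at 2000 m, 52 with the median of ratios, 16 without a filter and 10 with the compared altitudes only. At 3000 m they gave 11, and 17 with the median of ratios, 18 with quantiles, 1 with the compared altitudes only and 19 with separate muscle libraries. The share of all genes called is not given for the fits without a filter, with the compared altitudes only or with separate muscle libraries. Nothing about the chosen genes is read from those counts. Among the named genes, no called value changed sign in the settings run for them, but calls were lost. With each sample left out in turn, GOAT_ENSBTAP00000028680 at 3000 m lost its call in 5 of 6 fits in heart and in lung. GOAT_ENSBTAP00000001839 in heart at 2000 m lost its call in 6 of 6. GOAT_ENSBTAP00000028680 in heart at 2000 m kept its call in each, and GOAT_ENSBTAP00000049804 in heart at 3000 m gained a call in 1 of 6. Other genes were not compared in this way.

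With each sample left out in turn, members called ranged from 2 to 17 at 3000 m and from 3 to 16 at 2000 m, and genes chosen in the other tissues from 2 to 21 and from 12 to 34. Genes called after scaling by the members ranged from 868 to 3479 and from 3482 to 5826. Median changes ranged from -0.11 to -0.03 (heart, 2000 m), -0.05 to 0.03 (heart, 3000 m), -0.10 to -0.03 (lung, 2000 m), -0.18 to -0.10 (lung, 3000 m), -0.24 to -0.044 (muscle, 2000 m) and -0.23 to -0.037 (muscle, 3000 m). Where the averaged pair stayed in, the lowest muscle medians were -0.21 at 2000 m and -0.14 at 3000 m without replicate 2 of those altitudes. A muscle group at 600 m left with 1 sample is assumed to vary like the others. The share of all genes called as deposited is not given for these fits, so nothing about the members is read from the counts.

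Within a tissue, the replicate numbers did not pair libraries of different altitudes. Whether the same number marks the same goat in several tissues was not tested. Deviations of same-numbered libraries correlated at -0.204 to 0.272 over 27 pairs, 2 of them over 0.1, against -0.200 to 0.223 over 54 pairs with other numbers. With the replicate number as a block, members called were 1 at 3000 m and 10 at 2000 m, genes chosen in the other tissues 3 and 15, and genes called after scaling by the members 1731 and 4059.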
